A study of Mus musculus with 9 samples.

Results

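Cholesterol absorption and efflux in the mouse small intestine were followed through 8 genes chosen by symbol: Npc1l1, Abcg5, Abcg8, Abca1, Abcg1, Scarb1, Soat2 and Npc1. A gene was included when a probe set of the array was annotated to it alone, and its brightest probe set, by mean log2 of the signal plus 16, stood for it. That gave 7 of the 8 genes, measured by 12 probe sets, among 18193 genes named in the series, and Soat2, which makes cholesteryl esters in enterocytes, was not analysed here. Male C57BL/6J mice, 9 weeks old at the start, ate for 2 weeks a diet high in fat. The fat was palm oil in HF-PO, olive oil in HF-OO and safflower oil in HF-SO, with P/S values that rise in this order in the labels. The small intestine was cut into 3 equal parts, from SI3, the distal part, through SI2, the middle, to SI1, next to the stomach. RNA of scraped mucosa was pooled from 6 mice for each part and diet and hybridised to 1 Affymetrix array, so there are 9 arrays, 3 pools for each segment and 1 array for each diet within a segment. All groups were on a high-fat diet; the labels also name a low-fat diet, LF-PO, not analysed here. Each array stands for a pool, so the spread between mice is not visible. The p-values measure how much the differences between segments vary among the 3 pools, which also differ in diet, not among mice. Each probe set's spread is drawn there towards a value estimated from all probe sets tested.

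Cholesterol from food and bile enters the enterocyte through NPC1L1, a transporter of the brush border. ABCG5 and ABCG8 form a heterodimer at the same membrane that returns cholesterol and plant sterols to the lumen, and what stays is esterified and packed into chylomicrons or passed at the basolateral side by ABCA1 to apolipoprotein A-I, which makes HDL particles. Oxysterols activate the nuclear receptors LXR alpha and LXR beta, and in mice these receptors induce Abca1, Abcg1, Abcg5 and Abcg8. SCARB1 is a receptor for HDL that also sits on the enterocyte surface, ABCG1 loads sterol onto HDL chiefly in macrophages, and NPC1 moves cholesterol out of lysosomes.

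The deposited values are MAS5 signals, a linear brightness per probe set, and differ between probe sets for technical reasons, so signals are compared between arrays and not between genes. Changes are differences of log2(signal + 16). They were tested with limma on all 22519 probe sets whose mean reached the median, with the diet pool as a block, and a change counted as a call at an adjusted p under 0.05. All 7 genes passed that filter. The 2% trimmed mean was 500 on every array and median signals lay between 94.6 and 106.2. The number of arrays limits the precision. By their summed signals, markers followed the labels of the segments. The summed signal of 5 distal markers (Fabp6, Slc10a2, Fgf15, Slc51a and Slc51b) was 82165.1 to 84701.7 in SI3, 10927.5 to 12378.5 in SI2 and 7957.3 to 8625.2 in SI1. For 5 proximal markers (Gata4, Pdx1, Cybrd1, Slc40a1 and S100g) it was 2069.3 to 2615.8, 2317.9 to 2438.9 and 30535.6 to 34725.2 in the same order of segments. Of these 5, 1 was called higher and 2 lower in SI3 than in SI2 (10.4% and 10.8% of all probe sets). Single markers could vary more between diets: Cybrd1 in SI1 had 435.4 with HF-PO, 2082.5 with HF-OO and 1208.7 with HF-SO.

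Across the segments the genes took different courses. Scarb1 fell steeply along the intestine, Abca1 and Npc1 were higher in the distal and middle parts than in SI1, Npc1l1 was slightly higher there, Abcg8 was lower in SI3 than in SI2, and Abcg5 and Abcg1 were not called. Between SI3 and SI1, 3 of 7 genes were higher and 1 was lower, where 44.3% of all probe sets tested were called, 25% higher and 19.2% lower. Between SI2 and SI1, 3 were higher and 1 was lower, against 15% of all probe sets (8.07% higher and 6.92% lower). Between SI3 and SI2, 0 were higher and 2 were lower, against 21.3% (10.4% higher and 10.8% lower). The F test over the 3 segments called 5 of the 7, against 40.7%. Leaving out a pool lowered the number of genes called to between 1 and 2 for SI2 against SI1, and leaving out the SI1 array of HF-OO lowered it to 2. Median changes of the 7 genes were 0.10 for SI3 against SI1, 0.33 for SI2 against SI1 and -0.15 for SI3 against SI2, where all probe sets tested had medians of 0.08, 0.03 and 0.03.

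**Figure D1:**
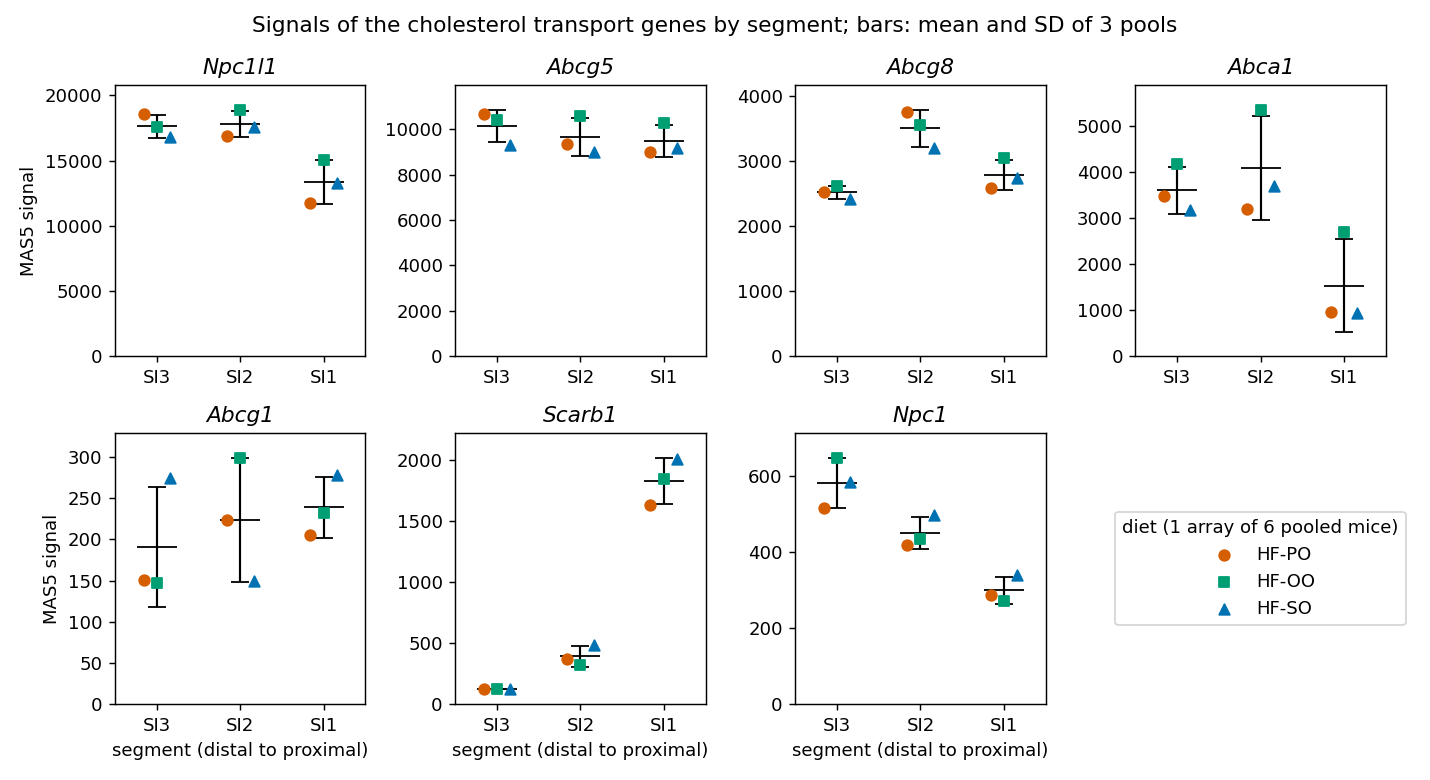
MAS5 signal (linear axis from 0, its own scale for each gene) of the 7 genes in SI3, SI2 and SI1; points are single arrays of 6 pooled mice, coloured by diet, and bars are the mean and SD of 3 pools. Scarb1 lies between 121.3 and 124.0 in SI3 and between 1631.6 and 2010.8 in SI1, whereas the Abcg5 points of the 3 segments overlap.

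Npc1l1, the entry route of cholesterol, had signals of 18549.5, 17558.2 and 16802.7 in SI3, 16904.4, 18908.1 and 17603.4 in SI2, and 11734.4, 15059.0 and 13249.6 in SI1, in the order HF-PO, HF-OO and HF-SO that is kept for all triplets of diets. The SI1 arrays all lay below the arrays of the other segments, and SI3 overlapped SI2. Npc1l1 was higher by 0.41 on the log2 scale in SI3 than in SI1 (SE 0.10, limma adjusted p = 0.0169) and by 0.42 in SI2 than in SI1 (SE 0.10, limma adjusted p = 0.0376), in 3 of 3 pools each. Both calls rest on all 3 pools: without any pool the adjusted p lay between 0.0515 and 0.0943 for SI3 against SI1 and between 0.116 and 0.162 for SI2 against SI1, and when only the HF-PO array of SI1 was dropped it was 0.0584 and 0.109. Without the SI1 array of HF-OO the SI2 call was lost too, at an adjusted p = 0.0688. With no filter on low signals the adjusted p of the 2 comparisons was 0.0818 and 0.173. SI3 and SI2 differed by -0.01 (SE 0.10, limma adjusted p = 0.941). In a bulk sample, fewer cells of a type and less RNA per cell cannot be told apart.

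Abcg5 and Abcg8 encode the partners of the luminal sterol exporter, and their genes lie head to head. On build GRCm38.p6, the RefSeq promoter table has 1 start for Abcg5, at position 84683011 of chromosome 17 on the minus strand, and 2 for Abcg8 on the plus strand. The Abcg8 start used here, at 84683121, leaves 109 bases between the genes, and the other lies 6819 bases upstream of it, inside the span of Abcg5. The stretch is printed because both genes are read outwards from it at these starts. It runs on the Abcg8 strand, chr17:84683012-84683120, and capitals mark matches to the letters GATAA, here as their reverse complement.
Abcg5-Abcg8 shared: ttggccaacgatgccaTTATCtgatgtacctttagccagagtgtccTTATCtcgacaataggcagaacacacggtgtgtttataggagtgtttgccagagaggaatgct
GATAA, searched on both strands, is the core that GATA factors bind, and 2 matches stand in these 109 bases. Of the 32851 RefSeq windows holding the 109 bases before a start, 9.36% have at least 1 match and 0.788% at least 2. A match is a description of letters, not a binding site.

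Abcg5 had signals of 10689.3, 10412.4 and 9321.3 in SI3, 9359.1, 10595.8 and 8998.4 in SI2, and 8996.5, 10293.0 and 9186.4 in SI1. The ranges of the 3 segments overlapped, and Abcg5 was not called in any comparison, with changes of 0.10 for SI3 against SI1, 0.02 for SI2 against SI1 and 0.07 for SI3 against SI2 (SE 0.09 each, limma adjusted p between 0.413 and 0.887). Abcg8 had 2528.0, 2620.0 and 2413.0 in SI3, 3760.4, 3563.0 and 3198.3 in SI2, and 2586.0, 3043.4 and 2743.1 in SI1. All SI2 arrays lay above those of both other segments, and SI3 overlapped SI1. Abcg8 was lower by 0.47 in SI3 than in SI2 (a log2 change of -0.47, SE 0.09, limma adjusted p = 0.0145), in 3 of 3 pools. That call was lost without each of the pools in turn, at adjusted p between 0.0638 and 0.111, and with no filter on low signals (0.0942). The change of Abcg8 for SI2 against SI1 was 0.33 (SE 0.09, limma adjusted p = 0.059); it passed with a pseudocount of 64 (0.0456), without the block (0.0477) and with a trended prior variance (0.00958). Over the 9 arrays the log2 signals of Abcg5 and Abcg8 had a Pearson correlation of 0.03, a description over arrays that share segments and diets. Whether the changes of the 2 genes differ was not tested.

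Abca1 is the basolateral exporter that lipidates apolipoprotein A-I. Its signals were 3477.9, 4157.5 and 3163.9 in SI3, 3199.7, 5346.5 and 3692.0 in SI2, and 949.5, 2690.9 and 940.4 in SI1. The SI1 arrays all lay below the others, and the HF-OO array stood well above the other SI1 arrays. Abca1 was higher by 1.40 in SI3 than in SI1 (SE 0.23, limma adjusted p = 0.00305) and by 1.56 in SI2 than in SI1 (SE 0.23, limma adjusted p = 0.00794). By pool, the change for SI3 against SI1 was 1.86 with HF-PO, 0.62 with HF-OO and 1.73 with HF-SO, and for SI2 against SI1 it was 1.74, 0.99 and 1.95. Without the SI1 array of HF-OO the SI3 change was 1.74 and the SI2 change 1.90, and both were called. The SI2 call was lost without the HF-PO pool (adjusted p = 0.0714), without the HF-SO pool (0.0795) and with no filter on low signals (0.0599). SI3 and SI2 differed by -0.15 (SE 0.23, limma adjusted p = 0.675).

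The other probe sets of Abca1 showed the same course. Probe set 1421839_at had 1278.1, 1197.9 and 964.4 in SI3, 933.2, 1541.0 and 948.0 in SI2, and 133.9, 458.5 and 181.3 in SI1, a change of 2.26 for SI3 against SI1 (SE 0.28, limma adjusted p = 0.000869). Probe set 1450392_at had 470.0, 456.9 and 381.2 in SI3, 375.0, 627.6 and 403.6 in SI2, and 65.6, 200.8 and 79.6 in SI1, a change of 1.92 (SE 0.24, limma adjusted p = 0.000879). Both correlated with the brightest probe set over the 9 arrays, with r of 0.97 and 0.98. The size of the Abca1 change therefore ranged from 1.40 to 2.26 with the probe set. Macrophages also use ABCA1. Of 7 macrophage markers tested, 7 were lower in SI3 than in SI1, where 19.2% of all probe sets were lower. Their summed signal, with Cd163 from below the filter included, was 2591.8 to 2857.5 in SI3, 5822.4 to 6707.4 in SI2 and 9006.3 to 10129.8 in SI1. The part of macrophages in the Abca1 change was not tested.

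**Figure D2:**
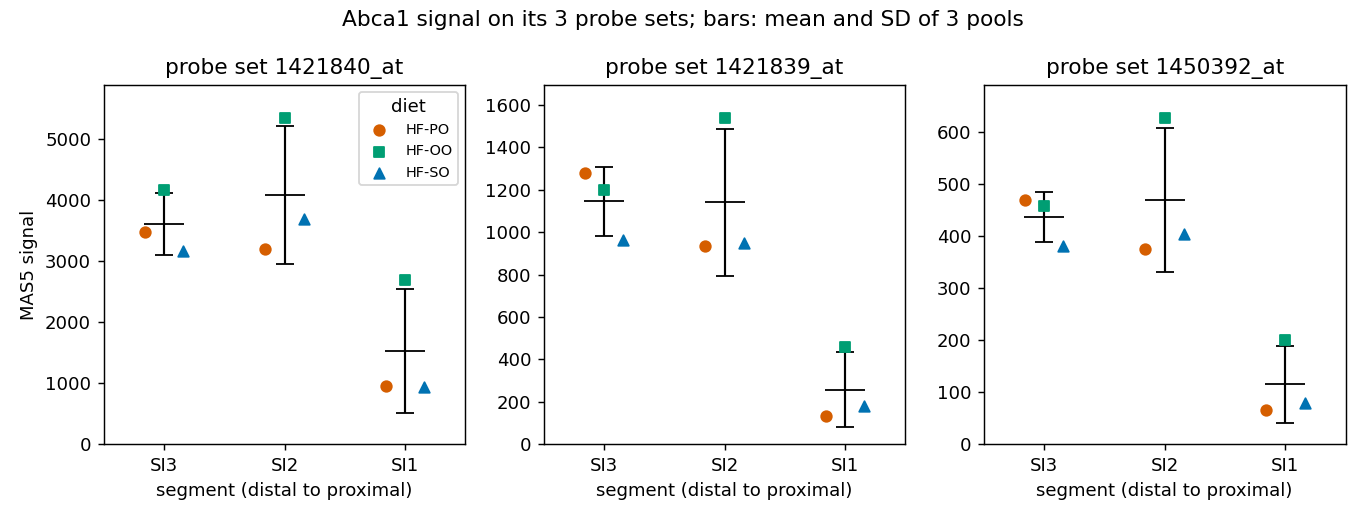
MAS5 signal of the 3 Abca1 probe sets (linear axes from 0) in SI3, SI2 and SI1; points are single arrays coloured by diet, bars the mean and SD of 3 pools. On each probe set the HF-OO array is the highest in SI1 and in SI2, and the SI1 arrays of HF-PO and HF-SO are the lowest of the 9.

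The start of Abca1 is shown because, on the brightest probe sets, it is the member with both a segment call and a diet difference of at least 1.5-fold. That diet difference rests on 1 array for each diet. A further reason is that LXR induces the gene through a direct repeat near the start. A part of LXR in the differences seen here was not tested. The 250 bases before the start in the RefSeq promoter table are given on the minus strand of GRCm38.p6, chr4:53159896-53160145. The RefSeq span of the gene, over all its transcripts, reaches 93 bases further upstream than this start. Capitals mark an E-box (CACGTG) and a match to GGTNA, then any 5 bases, then GGTCA, a loose form of the direct repeat (DR4) that LXR binds with its partner RXR; its letters were written with the known Abca1 site in mind.
Abca1 upstream: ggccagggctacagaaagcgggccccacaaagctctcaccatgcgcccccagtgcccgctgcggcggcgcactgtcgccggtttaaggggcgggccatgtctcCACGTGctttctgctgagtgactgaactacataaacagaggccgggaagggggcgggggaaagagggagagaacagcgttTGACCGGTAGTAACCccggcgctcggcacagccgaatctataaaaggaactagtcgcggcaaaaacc
The repeat, read on the opposite strand, lies 53 to 67 bases before the start used here, within the longer gene span, and the E-box 142 to 147 bases before it, outside that span. Both strands were searched, and the matches do not overlap. Of 32851 RefSeq windows of 250 bases, 0.177% hold the repeat and 6.02% the E-box. The GATAA letters are not in this window, where 22.6% of windows have them.

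Abcg1, the partner of ABCA1 in loading HDL, was dim and variable. Its signals were 151.2, 147.4 and 275.0 in SI3, 223.1, 299.3 and 149.2 in SI2, and 205.6, 231.9 and 278.8 in SI1. The segments overlapped, and the changes of -0.34 for SI3 against SI1, -0.13 for SI2 against SI1 and -0.22 for SI3 against SI2 were not called (SE 0.30 each, limma adjusted p between 0.385 and 0.809). Without the HF-SO pool the change for SI3 against SI2 was -0.73 and passed, at an adjusted p = 0.0489. A further Abcg1 probe set, 1455221_at, was below the filter, with signals between 3.7 and 59.6 over the 9 arrays, and its correlation with the brighter one was -0.23.

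Scarb1, the HDL receptor, changed more than any other of the 7 genes. Its signals were 121.3, 124.0 and 121.8 in SI3, 371.0, 322.0 and 488.8 in SI2, and 1631.6, 1849.2 and 2010.8 in SI1. The 3 segments did not overlap. Scarb1 was lower in SI3 than in SI1 by a log2 change of -3.73 (SE 0.13, limma adjusted p = 5.24e-06), a 13.3-fold difference of signal + 16. It was lower in SI2 than in SI1 by -2.19 (SE 0.13, limma adjusted p = 0.000177) and lower in SI3 than in SI2 by -1.55 (SE 0.13, limma adjusted p = 0.000498). Each change had the same direction in 3 of 3 pools. The SI3 signals of Scarb1 lay near the median signals of the SI3 arrays, 94.6 to 102.0. With pseudocounts of 1 and 64 the change for SI3 against SI1 was -3.89 and -3.34. Of the 22519 probe sets tested, 59, Scarb1 included, fell at least as far between SI3 and SI1.

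The other probe sets of Scarb1 gave -3.80 (1455820_x_at, SE 0.13, limma adjusted p = 4.98e-06) and -4.35 (1437378_x_at, SE 0.47, limma adjusted p = 0.000493) for SI3 against SI1. Their SI3 signals were low, 64.7, 43.8 and 54.8 on 1455820_x_at and 45.0, 5.3 and 98.1 on 1437378_x_at. Transcripts of exocrine pancreas were also present in SI1. Of 6 tested markers, 6 were lower in SI3 than in SI1, where 19.2% of all probe sets were lower. Their summed signal was 260.2 to 420.5 in SI3, 218.0 to 402.4 in SI2 and 27080.8 to 34551.9 in SI1. Between SI3 and SI2, 0 of the 6 were lower and 1 was higher (10.8% and 10.4% of all probe sets). The part of pancreatic transcripts in the Scarb1 change was not tested.

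Npc1, which releases cholesterol from lysosomes, had signals of 516.8, 648.1 and 585.9 in SI3, 419.4, 434.6 and 498.5 in SI2, and 288.2, 270.9 and 339.8 in SI1. The segments did not overlap and were ordered from SI3, the highest, to SI1. Npc1 was higher by 0.93 in SI3 than in SI1 (SE 0.11, limma adjusted p = 0.000699) and by 0.57 in SI2 than in SI1 (SE 0.11, limma adjusted p = 0.0179), in 3 of 3 pools each. The SI2 call was lost without each pool in turn (adjusted p between 0.0903 and 0.096), without the SI1 array of HF-OO (0.0725) and with no filter on low signals (0.11). The step between SI3 and SI2, 0.36 (SE 0.11, limma adjusted p = 0.0571), missed the threshold, and it passed with a pseudocount of 64 (0.047) and with a trended prior variance (0.0456). Those neighbours in the order are thus not separated by the test.

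**Figure D3:**
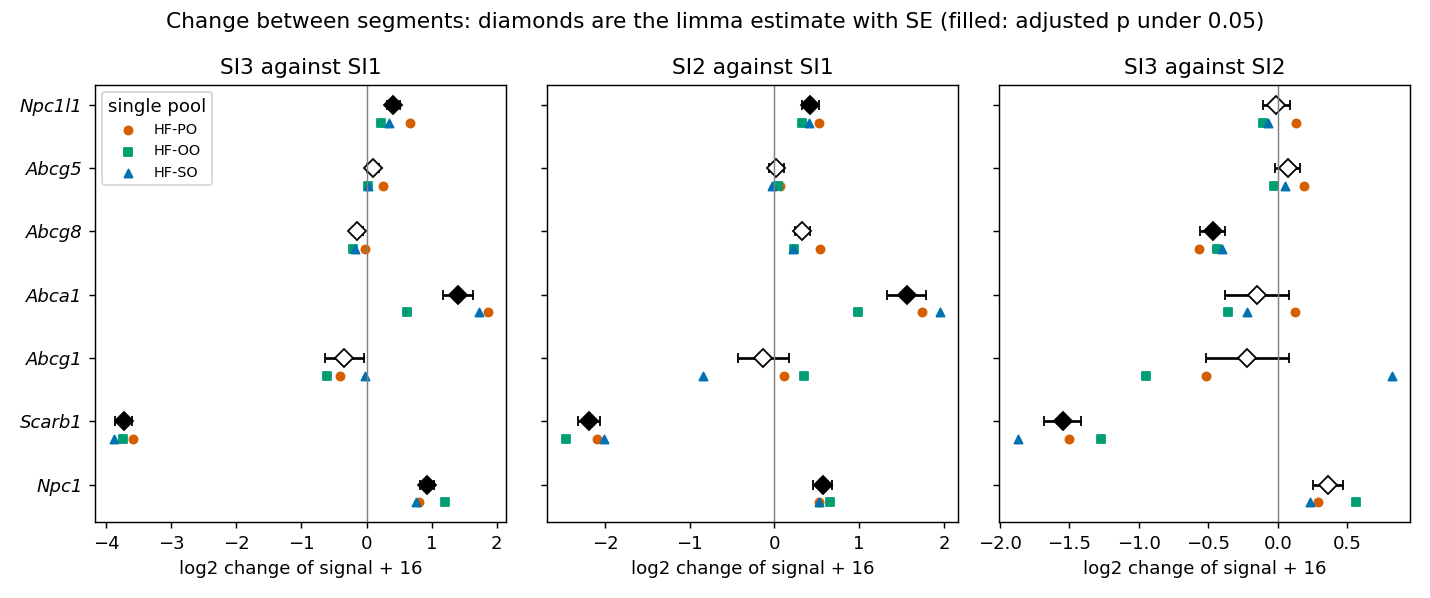
Difference of log2(signal + 16) between segments (x axis) for the 7 genes (rows); diamonds are limma estimates with SE, filled where the adjusted p was under 0.05, and coloured points below them are the differences within single diet pools. Scarb1 is lower in all 3 comparisons, Abca1 and Npc1 are higher in both comparisons with SI1, and the HF-OO points of Abca1 lie left of the other pools in those panels.

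Within a segment each diet has a single array, so diet differences have no replicate check and carry no p-value. A diet was said to set a probe set apart when signal + 16 there was higher, or lower, than in each of the others by 1.5-fold or more. In SI3, SI2 and SI1, 5.64%, 4.72% and 4.92% of all probe sets tested were set apart in some diet. Among the 7 genes, 1 was set apart in SI3, 0 in SI2 and 1 in SI1.

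Abca1 was the gene set apart in SI1. Its signals there were 2690.9 with HF-OO, 949.5 with HF-PO and 940.4 with HF-SO. Signal + 16 with HF-OO was 2.80-fold that with HF-PO and 2.83-fold that with HF-SO, and folds between diets are of signal + 16 throughout. HF-PO and HF-SO differed there by 0.01 on the log2 scale. In SI1, 0.453% of all probe sets were set apart higher with HF-OO, and 3 of the 22519, Abca1 among them, had a gap to the nearer diet as wide as its 1.49. The gap was 1.27 and 1.18 on the other probe sets. In SI2 the HF-OO array was again the highest, 1.67-fold above HF-PO and 1.45-fold above HF-SO on the brightest probe set, short of the limit, and 1.615-fold and 1.534-fold above the nearer diet on the others, where 0.946% of probe sets were set apart that way. In SI3 the difference of HF-PO minus HF-OO was -0.26, and on the other probe sets 0.09 and 0.04.

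Macrophage markers in SI1 summed to 9006.3 with HF-PO, 10129.8 with HF-OO and 9546.7 with HF-SO. Of the 7 tested, 0 were set apart, against 4.92% of all probe sets. The part of cell content in the Abca1 difference was not tested. Enterocyte markers summed to 163581.6, 186517.6 and 197659.3. Of the 8 other LXR genes tested, 0 were set apart higher with HF-OO in any segment (0.653%, 0.946% and 0.453% of all probe sets in SI3, SI2 and SI1). In SI1 the LDL receptor degrader Mylip had 190.2, 330.9 and 323.9 and was set apart lower with HF-PO, against 1.23% of all probe sets, and the lipogenic regulator Srebf1 had 2661.5, 2398.5 and 1548.3 and was set apart lower with HF-SO, against 1.08%.

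Abcg1 was the gene set apart in SI3, where HF-SO, with a signal of 275.0, was above the nearer diet, HF-PO, by 1.74-fold in signal + 16, against 0.768% of all probe sets. In SI2 its HF-SO array was the lowest of the 3, and in SI1 the highest, within the limit. The dim probe set 1455221_at did not follow, with 17.6, 59.6 and 3.7 in SI3.

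The remaining genes differed little between diets. For Npc1l1, HF-PO minus HF-OO was 0.08 in SI3, -0.16 in SI2 and -0.36 in SI1, and HF-PO minus HF-SO was 0.14, -0.06 and -0.17. For Abcg5 the widest difference was that of HF-SO minus HF-OO in SI2, -0.24, and for Abcg8 it was 0.23 for HF-PO minus HF-SO in SI2 and -0.23 for HF-PO minus HF-OO in SI1. On its brightest probe set Scarb1 ranged from 121.3 to 124.0 across diets in SI3, and in SI2 HF-SO was above HF-OO by 1.493-fold in signal + 16 (1.518-fold in signal). On 1437378_x_at, whose SI3 signals were 45.0, 5.3 and 98.1, HF-OO was set apart lower and HF-SO higher in SI3, against 1.07% and 0.768% of all probe sets, and 1455820_x_at was not set apart in any segment. Npc1 with HF-PO was below HF-OO in SI3 by a log2 difference of -0.32.

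The other genes of sterol handling were read from lists chosen by function, whose counts are set beside the share of all probe sets called. Of 9 genes tested for sterol sensing and SREBP2 targets, 8 were higher in SI3 than in SI1 and 1 was lower. The median change was 0.73, where 25% of all probe sets were higher and 19.2% lower. SREBP2 targets rise when cell sterol is low, but the list also holds genes of sterol sensing such as Scap and Insig2. Cell sterol was not measured. Stard4, a cytosolic sterol carrier, was higher by 0.73 (SE 0.09), Insig2 by 1.33 and Srebf2 by 0.59, and Insig1, which retains the SREBP complex in the endoplasmic reticulum, was lower by -1.31. Between SI2 and SI1, 1 was higher and 1 lower (8.07% and 6.92% of all probe sets), and between SI3 and SI2, 6 were higher and 1 lower (10.4% and 10.8%).

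Of 8 tested genes of the LXR list, 1 was higher and 2 were lower in SI3 than in SI1 (median -0.01). Of all probe sets, 25% were higher and 19.2% lower. The list holds the receptor gene Nr1h3 and the partner genes Rxra and Rxrb beside targets. Mylip rose, at 1234 ± 245 in SI3 against 281.7 ± 79.3 in SI1 (SD, n = 3 pools), a change of 2.09 (SE 0.17, limma adjusted p = 0.000121). Pltp, the phospholipid transfer protein, fell by 1.32 and Srebf1 fell by 0.39, and Nr1h3, the LXR alpha gene, had a change of -0.04 (limma adjusted p = 0.794). Lpcat3 and Smpdl3a, with 0.22 and -0.22, were not called.

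Among 6 tested partners of NPC1L1 in endocytosis and recycling, 1 was higher in SI3 than in SI1 and 0 were lower (median 0.14). Of all probe sets, 44.3% were called. The higher gene was the motor Myo5b, by 0.44 (SE 0.09, limma adjusted p = 0.00697). The adaptor Numb (-0.12) and Lima1 (-0.15) were not called. Of 9 genes for sterol transport inside the cell, 2 were higher and 2 lower (median -0.02), a share called like the 44.3% of all probe sets. Gramd1b and Osbpl2 were higher by 0.50 and 0.30, Gramd1c and Stard5 were lower by -0.60 and -0.92, and Npc2, the lysosomal partner of NPC1, had a change of 0.28 (limma adjusted p = 0.0571).

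Of 3 tested genes of sterol ester turnover, 1 was lower and 0 were higher, where 19.2% of all probe sets were lower. The lower gene was the lysosomal lipase Lipa, by -1.73 (SE 0.11, limma adjusted p = 4.84e-05), at 1435 ± 191 in SI3 against 4783 ± 205 in SI1 (SD, n = 3 pools). Of 5 tested lipoprotein genes, 3 were lower and 0 higher (median -0.82), where 19.2% of all probe sets were lower: Apoe by -1.48, Apob by -1.15 and the lipid transfer protein Mttp by -0.82. Apoa1, the acceptor of ABCA1, had a change of 0.13 (limma adjusted p = 0.328), with signals among the highest of the arrays, where saturation was not tested.

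**Figure D4:**
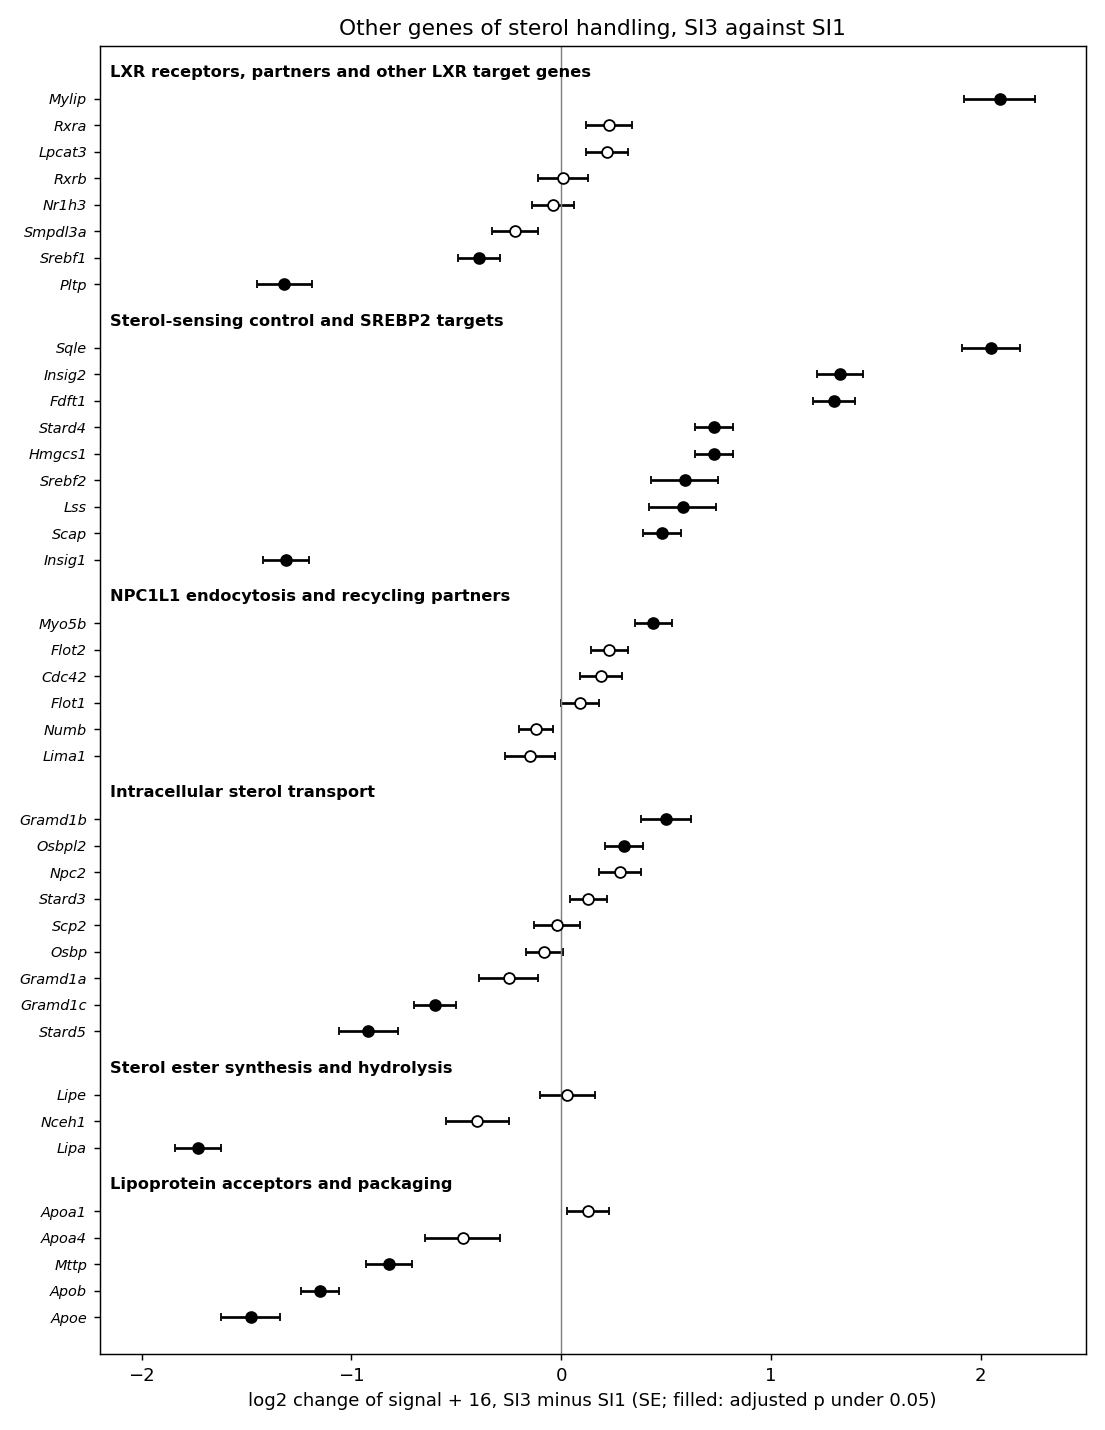
Difference of log2(signal + 16), SI3 minus SI1 (x axis), with SE, for the tested genes of 6 lists (rows); filled points had an adjusted p under 0.05. Of the 9 genes for sterol sensing and SREBP2 targets 8 lie to the right as filled points, whereas the LXR list has Mylip far right and Pltp far left.

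Markers of other cells also differed between SI3 and SI1, and their part in the changes of the transport genes was not tested; of all probe sets 25% were higher and 19.2% lower. Of 6 enterocyte markers tested, 2 were higher and 2 lower (median 0.12). Endothelial markers were lower in 3 of 5 (median -1.72), markers of T and intraepithelial lymphocytes in 6 of 6 (median -1.51) and smooth muscle markers in 2 of 6 (median -0.33), with 0 higher in each. Goblet cell markers were higher in 5 of 5 (median 0.58), Paneth cell markers in 4 of 4 (median 2.60) and stem and cycling markers in 5 of 6 (median 0.67), with 0 lower. Of 3 adipocyte markers, 1 was higher and 1 lower. Among markers below the filter, Cd163 had signals between 1.1 and 32.8 and Lep between 2.3 and 43.7.

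The genes with the most similar course over the 9 arrays were looked up among 10970 tested genes, as a description of arrays that share segments and diets. Nearest to Npc1l1 were Tbce (r = 0.987) and Nek6 (r = 0.982), and to Scarb1 Cldnd1 (0.996) and Kctd14 (0.994). Npc1 ran closest to Ss18 (0.994) and Marveld3 (0.988), Abca1 to Ube2g1 (0.955) and Fam118a (0.953), and Abcg8 to Epha1 (0.962) and Ptgr1 (0.957). For Abcg5 they were Nlgn2 (0.942) and Exoc6b (0.875), and for Abcg1 Ccdc84 (0.910) and Aloxe3 (0.907). Within the 7 genes, r was 0.95 between Npc1l1 and Abca1 and -0.93 between Scarb1 and Npc1.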

How the data were processed

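Expression was measured in 9 pooled RNA samples on Affymetrix arrays. The authors deposited 1 signal intensity for each probe set on a linear scale, made with MAS5 per the submitters' processing notes, with no version given; other steps are not given in the sources used here. From 45101 probe sets, 64 array controls were left out. The platform annotation gave 34945 of the rest 1 gene symbol, 932 several and 9160 none, and 34741 of the 34945 matched the RefSeq table. Signals were analysed as log2(signal + 16) with limma 3.58.1 in R 4.3.3: segment and diet pool as terms, 4 residual degrees of freedom, two-sided moderated tests, Benjamini-Hochberg over 22519 probe sets with a mean of at least 6.80. The diet pool entered as a block, taking the 6 mice of a diet to have given all 3 segments; the labels give 6 mice per diet and part and do not state that they are the same animals; departures from the segment mean correlated from -0.05 to 0.15 within pools and from -0.13 to 0.05 between pools. No p-value was computed for diets. Plots were drawn with matplotlib 3.10.9 in Python 3.11.15. The genes and lists were chosen with earlier results of these data known. Named genes are the 7 analysed, members of the lists, and for each of the 7 the 2 genes with the highest Pearson correlation. Alternatives covered pseudocount, filter, quantile normalization, block, prior variance, probe set, the diet limit and left-out pools or arrays.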

Additional observations from a re-analysis of the deposited data

How the results depend on the processing

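The counts of the 7 genes called were 4 for SI3 against SI1, 4 for SI2 against SI1, 2 for SI3 against SI2 and 5 by the F test. With no filter on low signals, which adjusts over more probe sets, they were 3, 1, 1 and 3. The SEs of the 7 genes were also larger there, such as 0.12 against 0.10 for Npc1l1 in SI3 against SI1. Leaving out a diet pool, or 1 SI1 array, gave 3 to 4 for SI3 against SI1, 1 to 3 for SI2 against SI1, 1 to 2 for SI3 against SI2 and 3 to 5 by the F test; these fits hold fewer samples. Leaving out the SI1 array of HF-OO was chosen after seeing the data. Without the replicate block the counts were 4, 5, 2 and 5, and the block changed no other call than that of Abcg8 for SI2 against SI1. Pseudocount 1 and quantile normalization left these counts as they were. Of 324 single-gene segment results under alternatives, 285 kept their side of the threshold, 32 lost the call and 7 gained it. The 285 include changes, such as all those of Abcg5, that were not called at first and stayed so. The share of calls that were lost is therefore larger than 32 of 324. Some changes that were not called switched sign. Abcg1 for SI2 against SI1 went from -0.13 to 0.23 without the HF-SO pool. Scarb1 in all 3 comparisons, and Abca1 and Npc1 for SI3 against SI1, kept their calls in all of them. Among diets, 2 genes were set apart at 1.5-fold and 1 at 2-fold, and the Abcg1 difference with HF-SO in SI3 reversed to -0.77 on probe set 1455221_at; the cause was not tested.

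Over all probe sets, the count for SI3 against SI1 was 9969 and 5596 to 8538 with a pool or SI1 array left out. For SI2 against SI1 it was 3375, 604 with no filter and 545 to 1910 with a pool or array left out. For SI3 against SI2 it was 4787, 1681 with no filter and 1329 to 4790 with one left out, and by the F test 9154, 4666 and 3710 to 7698. Signal over background limits Abcg1, the SI3 values of Scarb1 on its brightest probe set, and the dimmer Scarb1 probe sets.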
